A study of Rattus norvegicus with 12 samples.

Results

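Thrombin, the thrombin receptor-activating peptide TRAP and TRAP given after pertussis toxin (PTX) were compared for the transcriptional response that they had in common in primary aortic smooth muscle cells of newborn rats. All 12 arrays of the series were used, 6 of cells collected 120 min after a stimulus and 6 of basal cells. They belong to 3 experiments, each with 2 basal and 2 stimulated arrays, and in all of them the cells had been kept overnight without serum. Thrombin was given at 2 U/ml, TRAP at 25 µM, and TRAP at the same dose following 24 h with PTX at 200 ng/ml. The strain and sex of the rats are not given by the labels, nor whether the replicates are separate cultures. The p-values therefore measure the spread among these arrays, which may be technical, and in the fit over all 12 arrays also differences among the 3 stimuli. The basal arrays of the TRAP after PTX experiment are labelled as having received no agent. An effect of PTX itself and one of TRAP in cells with PTX cannot be told apart there unless those basal cells also had the toxin. The labels place all basal arrays prior to stimulation and name no unstimulated cells kept for the same 120 min. An effect of the stimuli and a change over those 120 min without a stimulus therefore cannot be told apart.

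Thrombin is the protease of blood clotting, and it switches on protease-activated receptors of smooth muscle by cutting off part of their outer end. TRAP is a short peptide that mimics the freed receptor end and needs no cutting. These receptors couple to G proteins of several families and through them to calcium, to the GTPase RhoA and to the kinase ERK, while PTX disables the Gi family. The first genes to respond to such signals are immediate-early genes, whose transcription needs no new protein. Many encode transcription factors, or feedback proteins that shut the signal down again.

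A gene was represented by its brightest probe set, and its signal was used as log2(signal + 16), a scale that understates the changes of dim genes. The shared response of a gene is the stimulated minus basal difference over all 12 arrays with the experiment as a block, fitted with limma, and a difference was called at a Benjamini-Hochberg adjusted p under 0.05 over the 18625 probe sets tested. Differences among the stimuli count as spread in this fit, so they widen the standard error of genes with unequal responses. A gene moved in the same direction on every array when each of its 6 stimulated arrays lay beyond both basal arrays of its own experiment. Genes that met both criteria are called shared genes below. The response to a single stimulus is its 2 stimulated arrays minus their own 2 basal arrays, in a model with the 6 group means.

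The 12 arrays were scaled alike, with a mean of 200.066 to 200.076 once the 2% highest and lowest signals were left out and a median signal between 39.7 and 53.6. Replicate arrays correlated with r of 0.983 to 0.991 across probe sets, and the 3'/5' ratio of GAPDH, a measure of RNA quality, was 1.06 to 1.18 on basal and 1.07 to 1.18 on stimulated arrays. The 8 arrays of both TRAP experiments fell into 2 sets of 4 that cross the groups. The acute-phase gene Saa3 shows them: replicate 2 of TRAP and replicate 1 of TRAP after PTX were with the basal arrays of the TRAP experiment, at 15.9 to 22.8. Replicate 1 of TRAP and replicate 2 of TRAP after PTX were with the basal arrays of the other experiment, at 222.5 to 420.9. In each of these experiments 1 stimulated array thus lies in the other set than its basal arrays. With all 12 arrays the size of a shared response is the same whether the experiments or the sets are the block, since stimulated arrays are spread evenly over the sets. The p-values differ, and for the cytokine, NF-kB and other genes described below as moving with the sets those under both are given. Further genes were split by the sets. On the TRAP and TRAP after PTX arrays with low Saa3, Serpinb2 was at 204 and 189.8, against 73.6 and 39.3 on the others. Dusp5 was at 458.4 and 350.8 against 194.5 and 190.2, and Fosl1 at 1049.7 and 1081.8 against 699.1 and 535.5. Their limma adjusted p with the sets as the block were 0.000331, 4.27e-05 and 1.2e-09. Nr4a1, Sgk1 and Flt1 were split likewise. The sets were found in these data, so a smaller p with them as the block is no independent support. These are bulk samples, in which fewer cells with a transcript and less of it per cell cannot be told apart.

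Promoter sequences of the genes with the largest shared changes show what lies around their annotated starts. They are the 250 bases before and 50 bases after a transcript's start in RefSeq's rat assembly GRCr8, written 5′ to 3′ on the gene's strand. Whether these cells start transcription there was not tested, so a window may miss the promoter in use. Capitals mark matches, on either strand, to the cyclic AMP response element (CRE) TGACGTCA, its shorter form TGACG, which reads as its reverse complement where it lies on the other strand, the AP-1 site TGANTCA, the Egr site GCGTGGGCG and the CArG box bound by SRF. Where a short form lies within a CRE, the whole CRE is in capitals. The first 5 belong to the 4 largest shared rises and to the largest shared fall. Ier2 and Dusp5 were added after the matches were seen, Ier2 for its CRE and Dusp5 for its pair of adjacent CArG boxes.
Fosl1 (chr1:212183635-212183934, plus strand): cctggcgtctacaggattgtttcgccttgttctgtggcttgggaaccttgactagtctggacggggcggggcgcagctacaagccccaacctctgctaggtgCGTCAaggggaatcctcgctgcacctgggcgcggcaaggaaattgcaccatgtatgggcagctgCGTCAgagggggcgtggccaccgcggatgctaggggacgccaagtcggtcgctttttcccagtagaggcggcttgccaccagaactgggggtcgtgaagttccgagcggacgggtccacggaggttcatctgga
Cxcl1 (chr14:17479272-17479571, minus strand): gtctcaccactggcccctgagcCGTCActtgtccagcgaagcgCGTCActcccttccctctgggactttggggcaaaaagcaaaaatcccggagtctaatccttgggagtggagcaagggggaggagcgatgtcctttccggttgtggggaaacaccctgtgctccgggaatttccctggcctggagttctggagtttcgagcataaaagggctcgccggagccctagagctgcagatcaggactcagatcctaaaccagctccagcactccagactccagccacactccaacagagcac
Serpinb2 (chr13:24055771-24056070, plus strand): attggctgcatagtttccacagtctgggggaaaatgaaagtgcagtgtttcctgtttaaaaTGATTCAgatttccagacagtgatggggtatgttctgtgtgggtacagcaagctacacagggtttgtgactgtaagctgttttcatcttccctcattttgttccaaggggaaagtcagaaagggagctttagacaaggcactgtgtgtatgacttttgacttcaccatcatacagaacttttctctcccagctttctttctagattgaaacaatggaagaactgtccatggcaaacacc
Noct (chr2:137421824-137422123, plus strand): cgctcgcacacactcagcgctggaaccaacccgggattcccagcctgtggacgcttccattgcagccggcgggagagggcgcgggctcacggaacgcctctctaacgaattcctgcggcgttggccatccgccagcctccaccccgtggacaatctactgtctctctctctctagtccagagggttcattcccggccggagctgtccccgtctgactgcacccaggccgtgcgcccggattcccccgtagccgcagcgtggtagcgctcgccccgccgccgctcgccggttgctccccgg
Bambi (chr17:58820954-58821253, minus strand): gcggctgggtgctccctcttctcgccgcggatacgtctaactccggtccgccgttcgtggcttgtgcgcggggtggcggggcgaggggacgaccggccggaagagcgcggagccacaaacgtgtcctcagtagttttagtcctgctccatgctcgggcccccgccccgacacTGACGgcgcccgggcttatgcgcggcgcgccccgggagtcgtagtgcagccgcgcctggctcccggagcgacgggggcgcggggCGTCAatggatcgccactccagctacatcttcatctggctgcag
Ier2 (chr19:40399123-40399422, plus strand): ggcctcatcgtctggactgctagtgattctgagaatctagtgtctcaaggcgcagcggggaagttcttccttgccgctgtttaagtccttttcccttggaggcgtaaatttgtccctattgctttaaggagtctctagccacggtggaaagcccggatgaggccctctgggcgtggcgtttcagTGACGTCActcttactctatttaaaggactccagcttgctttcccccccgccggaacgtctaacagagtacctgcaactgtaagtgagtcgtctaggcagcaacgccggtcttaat
Dusp5 (chr1:262543524-262543823, plus strand): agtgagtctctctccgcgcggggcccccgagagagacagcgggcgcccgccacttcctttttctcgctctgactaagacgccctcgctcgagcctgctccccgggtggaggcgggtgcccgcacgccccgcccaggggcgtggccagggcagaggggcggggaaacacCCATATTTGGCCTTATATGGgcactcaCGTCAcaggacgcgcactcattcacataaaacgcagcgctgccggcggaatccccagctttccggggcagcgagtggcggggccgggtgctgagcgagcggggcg

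The window of Noct, a gene that rose on every stimulated array, held none of these letters, and that of Serpinb2 held a single AP-1 match. Fosl1, Cxcl1 and Bambi each held 2 short CRE forms, so the same match stood in the windows of genes that rose and of a gene that fell. In Bambi 1 of the 2 lies after the annotated start. Promoters could be matched for 299 of the 358 shared genes that rose, 463 of the 559 that fell and 8344 of the 9906 genes tested. A CRE was found in 5.02% of those that rose, 2.59% of those that fell, 3.50% of the tested genes and 1.91% of all 27457 promoters. The CArG box was in 2.34%, 0.648%, 1.38% and 1.64% of the same sets, and the AP-1 site in 5.69%, 3.89%, 4.51% and 7.33%. Among the 42 matched promoters of genes that rose at least 2-fold, 5 held a CRE, 4 a CArG box and 6 an AP-1 site. Egr sites were rare throughout, in 1.67% of the promoters of genes that rose and 1.08% of those that fell. The short CRE form was in 39.1% and 30.2% of these and in 33.8% of the tested genes. The sets differ in base composition, with a median G and C content of 64.7% for genes that rose, 60.3% for those that fell and 61.7% for the genes tested. These are counts of letters and were not tested.

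Of the 18625 probe sets 2040 were called in the shared response (11.0%), of which 867 rose (4.66%) and 1173 fell (6.30%). Counted by direction alone, 720 probe sets were higher (3.87%) and 1147 lower (6.16%) on all 6 stimulated arrays than on both basal arrays of their experiment. Both criteria were met by 602 that rose (3.23%) and 830 that fell (4.46%). In genes these were 358 and 559, or 917 shared genes, and a further 279 of the shared probe sets carry no single gene symbol. Another 335 genes were called without moving the same way on every array, and 275 moved the same way without being called. The balance of rises and falls turned on how the arrays were scaled: with the deposited scaling 42.5% of the called probe sets rose, with each array centred on its median 67.7% did, and with quantile normalization 53.1%. The median of all coefficients was -0.04, 0.03 and -0.01 on the log2 scale in turn, and falls of under 1.3-fold numbered 568, 162 and 442.

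**Figure D1:**
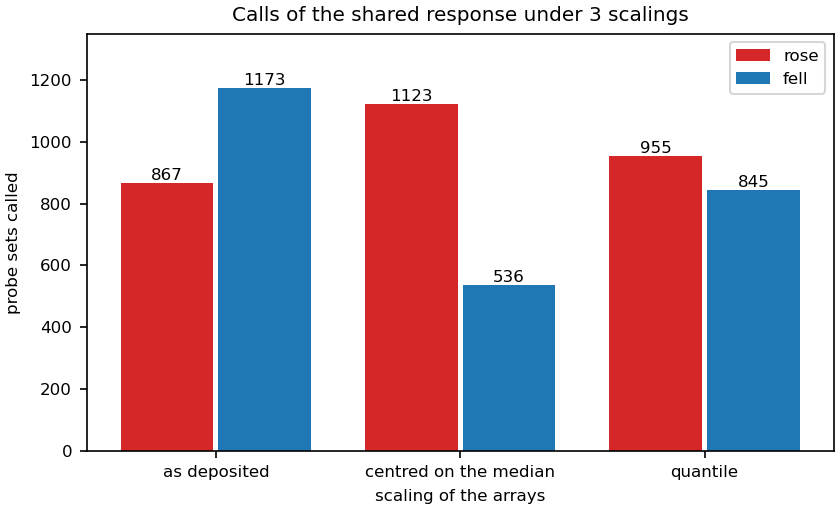
Probe sets called in the shared response, as bars of those that rose and those that fell, with the arrays scaled as deposited, centred on their median or quantile normalized. The count of falls went from 1173 to 536 and 845, while the count of rises went from 867 to 1123 and 955.

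Rises were larger than falls. The median change of the shared genes was 0.47 for those that rose and -0.38 for those that fell, and 227 of the 358 rises and 469 of the 559 falls were under 1.5-fold. At least 2-fold changes were made by 50 shared genes that rose and 8 that fell, and at least 4-fold by 10 and 1. The genes that rose were also brighter, with a median signal of 509.5 against 195.9 for those that fell and 249.3 for all genes tested. A total of 294 shared genes had further tested probe sets, 390 in all. Of these, 360 had the same sign as the brightest one and 152 were called with it, while 1 was called in the other direction. The rest were not called, among them 1 each of Sesn1 (-0.27), Enah (0.16) and Zfp36l2 (0.23), so the sizes given below are those of the brightest probe set.

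Immediate-early transcription factors had the largest share of members called among the lists of 10 or more: 23 of 33 measured members rose and 1 fell, with a median of 0.67, beside 5.03% and 7.61% of all 9906 genes and a median of -0.05. Of these, 18 rose and 1 fell on every array as well. Fosl1, which encodes the AP-1 subunit Fra-1, had the largest shared rise of all genes. Its signal was 127.8 and 109.8 on the basal arrays and 1928.7 and 1727.7 after thrombin, 64.5 and 59.1 against 699.1 and 1049.7 after TRAP, and 71.1 and 69.7 against 1081.8 and 535.5 after PTX and TRAP. The lowest stimulated signal, 535.5, lay above the highest basal one, 127.8, and the shared change was 3.48 ± 0.15 (SE, log2), or 11.2-fold (limma adjusted p = 3.67e-09).

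The zinc finger factor genes Egr1 and Egr2 rose with it, while Egr3 measured 0.17 ± 0.19 and was not called. Egr1 had basal signals of 1076.2 and 1041.1 (thrombin experiment), 582 and 749.9 (TRAP) and 598.6 and 601.7 (TRAP after PTX), and stimulated signals of 3223.4 and 3259.5, 2570.7 and 2793.3, and 3261.3 and 3139.8 in the same order. Its stimulated arrays were alike in all 3 experiments, all above every basal array, and the shared rise was 1.99 ± 0.10 (limma adjusted p = 1.95e-08). Egr2 rose by 2.24 ± 0.19, and the nuclear receptor gene Nr4a1, whose basal signals were 68.5 to 103.3 and stimulated ones 187.3 to 504.3, by 1.80 ± 0.20. Junb, another AP-1 subunit, rose by 1.51 ± 0.10 and Ier2, an immediate-early regulator whose promoter holds the CRE shown above, by 1.64 ± 0.11. Members at about 2-fold were Maff (1.16), Nr4a3 (1.16), Ets1 and Ets2 (both 1.07) and Nfil3 (1.00). The founding members of the class moved less by this time: Jun rose by 0.52 ± 0.11, while Fos measured 0.26 ± 0.10 and was not called (limma adjusted p = 0.0974). Klf2, a factor known from quiescent vessels, was the member that fell, by 0.29, a call that was lost with the arrays centred on their median.

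**Figure D2:**
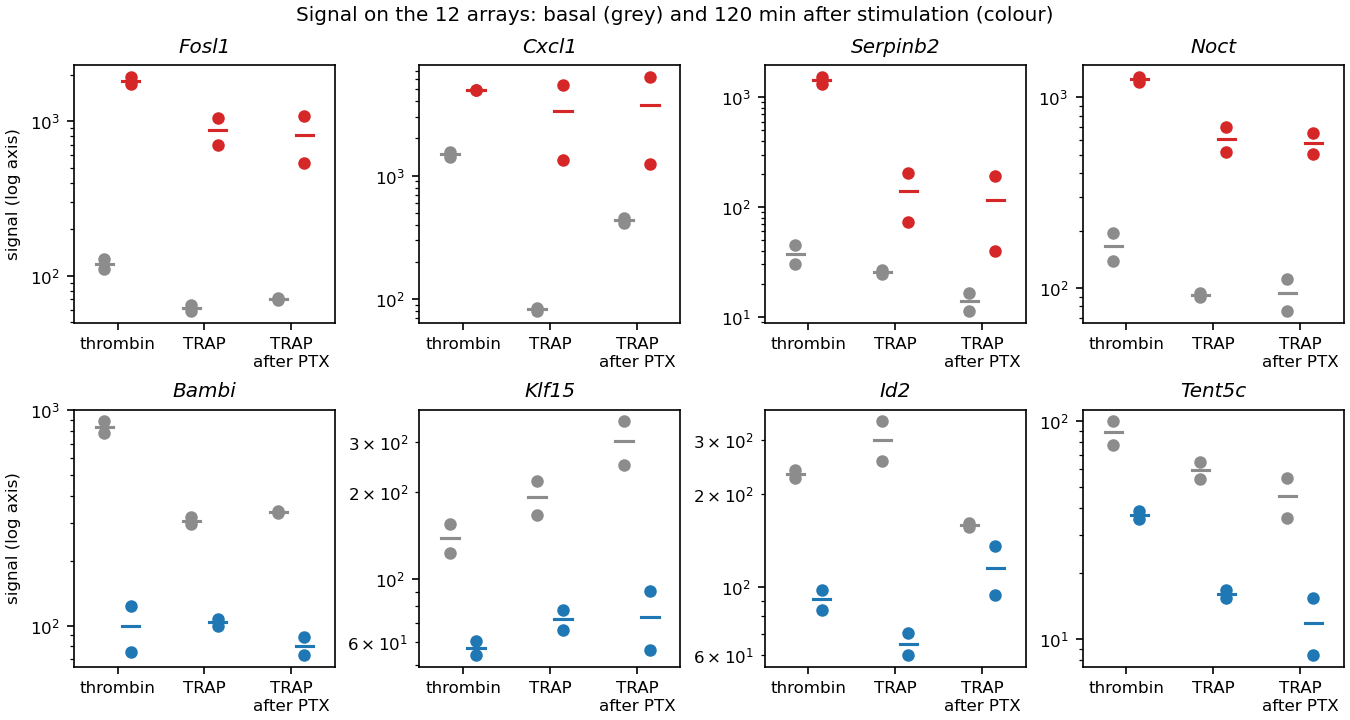
Signal (log axis) on the 12 arrays of the genes with the 4 largest shared rises and the 4 largest shared falls, grey points for basal arrays, coloured points for stimulated arrays and bars for the mean of 2. In each experiment both stimulated arrays lie beyond both basal arrays. The stimulated arrays of the TRAP experiments are far apart for Cxcl1 (5354.7 and 1332.8, 1237.8 and 6274.7) and Serpinb2 (73.6 and 204, 189.8 and 39.3).

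Genes listed as feedback regulators of ERK and G protein signals rose beside the factors, and the list also counts the kinase gene Sgk1. In this list of feedback regulators 11 of 18 measured members rose and 1 fell, with a median of 0.60, and all 12 moved the same way on every array. Dusp5 and Dusp6, phosphatases that inactivate ERK, rose by 2.02 ± 0.24 and 1.74 ± 0.12. Dusp6 had basal signals of 582.5 and 456.4 (thrombin experiment), 188.6 and 190.2 (TRAP) and 190.0 and 243 (TRAP after PTX), and stimulated signals of 1288.4 and 1176.9, 758.3 and 936.1, and 915 and 804.1 in the same order, with no overlap within any experiment. Errfi1, an inhibitor of the EGF receptor, rose by 1.70 ± 0.14, and the genes of the G protein inhibitors Rgs16 and Rgs2 by 1.31 and 0.73. Sgk1, a kinase induced by serum and glucocorticoids, was at 238.1 and 207.8 on the basal arrays and 1105 and 1256.5 after thrombin, 93.9 and 88.5 against 322 and 567.4 after TRAP, and 55.2 and 85 against 538.8 and 276.5 after PTX and TRAP. Its rise of 2.21 ± 0.16 (limma adjusted p = 4.94e-07) was one of the most even by the mean of each stimulus, at 2.32, 2.05 and 2.25 for thrombin, TRAP and TRAP after PTX. Its single stimulated arrays ranged from 1.66 (TRAP) to 2.71 (TRAP after PTX). Spry2, a Sprouty inhibitor of receptor kinases, rose by 0.65, and its relative Spry1 fell by 0.55, mostly with thrombin (-1.28 against -0.11 and -0.27). With the arrays centred on their median or quantile normalized 10 members rose and none fell.

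Targets of cyclic AMP and the factor CREB rose in 6 of 13 measured members and fell in none (median 0.22). Noct, a clock-regulated relative of the deadenylases, had the most even rise among the 4 largest. Its signal went from 193.4 and 138.2 to 1277.3 and 1201.5 with thrombin, from 89.6 and 94.1 to 513.8 and 700.7 with TRAP and from 111.3 and 75.9 to 646.2 and 502.4 with TRAP after PTX. The highest basal signal was 193.4 and the lowest stimulated one 502.4, and the change was 2.59 ± 0.11 (limma adjusted p = 3.67e-09). Akap12, a scaffold of protein kinase A, rose by 1.69 ± 0.23 (limma adjusted p = 0.000263, or 2.75e-08 with the sets of arrays as the block). It moved with the sets: the TRAP and TRAP after PTX arrays of the set with low Saa3 were at 3728.6 and 3365 and those of the other set at 1567.7 and 1503.2. The clock gene Per2 rose by 0.69 ± 0.07, at 0.87, 0.62 and 0.57 with the 3 stimuli. Regulators of mRNA decay rose in 7 of 16 members and fell in 1 (median 0.00). Among them were Zfp36 (1.25 ± 0.11) and Zfp36l2 (0.88 ± 0.08), which bind AU-rich elements and shorten the life of immediate-early and cytokine mRNAs, and Rc3h1 (0.38), which encodes roquin.

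**Figure D3:**
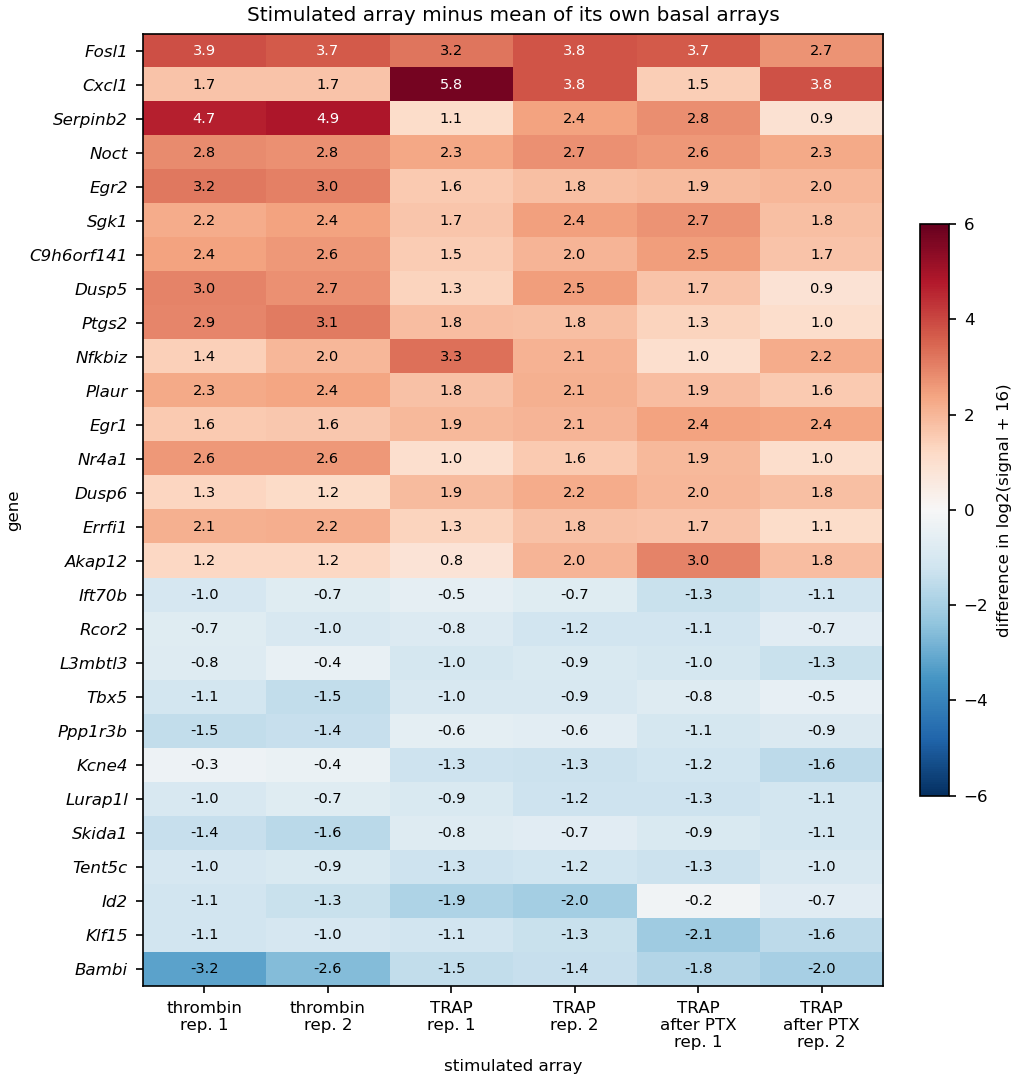
Difference between each stimulated array and the mean of its own 2 basal arrays, in log2(signal + 16), for the 16 largest shared rises and the 12 largest shared falls. The sign is the same across all 6 columns in each row, and the size is most uneven for Cxcl1 and Serpinb2.

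Among genes for secreted ligands, growth factors rose in 4 of 19 members and fell in 2 (median 0.08). Hbegf and Areg, ligands of the EGF receptor that Errfi1 restrains, rose by 1.58 ± 0.11 and 1.22 ± 0.17. Areg was at 6.1 to 6.7 on the basal arrays of both TRAP experiments, below the pseudocount, which therefore sets the size of its change: with a pseudocount of 64 it was 0.60. Hbegf was at 859.9 and 843.6 on the basal arrays and 3371.9 and 3439.5 after thrombin, 308.2 and 315.6 against 858.5 and 1068.3 after TRAP, and 363.4 and 387.5 against 978 and 784 after PTX and TRAP, with no overlap in any experiment. Edn1, which encodes the vasoconstrictor endothelin, rose by 0.93 ± 0.13. In the other direction Fgf18 fell by 0.85 on every array and Bmp4 by 0.62, the latter without keeping its direction on each array.

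Haemostasis, protease and matrix genes rose in 7 of 17 members, 5 of them in the same direction on every array, and none fell (median 0.16). Serpinb2, an inhibitor of plasminogen activators, rose by 2.79 ± 0.45 (6.9-fold; limma adjusted p = 0.00105). Its signal went from 44.7 and 30.0 to 1321.1 and 1530.8 with thrombin, from 24.5 and 26.8 to 73.6 and 204 with TRAP and from 16.5 and 11.3 to 189.8 and 39.3 with TRAP after PTX. It was higher on every stimulated array than on its basal arrays, and the brightest array outside the thrombin experiment was at 204. Plaur, the receptor of urokinase, and F3, the tissue factor that starts clotting, rose by 2.00 ± 0.11 and 0.98 ± 0.12. F3 was bright already at rest, at 2449.6 and 3199 on the basal arrays and 7114.7 and 6242.5 after thrombin, 2200.0 and 2332.8 against 5534.1 and 5111.8 after TRAP, and 4021.6 and 3446.7 against 4871.3 and 5519.7 after PTX and TRAP. Tnfaip6, whose product binds hyaluronan, rose by 1.28 ± 0.06, with responses of 1.34, 1.20 and 1.31, the smallest spread among stimuli of the shared genes that changed at least 2-fold. A further probe set of Tnfaip6 measured 0.44 and was called (limma adjusted p = 0.025). The protease gene Adamts1 rose by 0.64 ± 0.08.

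In the list of cytokines, chemokines and adhesion molecules 6 of 15 members rose and none fell (median 0.67), and 3 of the 6 kept their direction on every array. Cxcl1, a chemokine that attracts neutrophils, rose by 3.04 ± 0.47 (limma adjusted p = 0.000737). It was at 1552.3 and 1412.1 on the basal arrays and 4953.9 and 4894.7 after thrombin, 80.6 and 85.4 against 5354.7 and 1332.8 after TRAP, and 455.5 and 417 against 1237.8 and 6274.7 after PTX and TRAP. These signals move with the 2 sets of arrays: the TRAP and TRAP after PTX arrays of the set with high Saa3 were at 5354.7 and 6274.7 and those of the other set at 1332.8 and 1237.8. With the sets as the block the adjusted p was 1.3e-06 at the same size, and leaving out replicate 1 of both TRAP and TRAP after PTX gave a rise of 2.90. Csf3 (1.18 ± 0.22, but 1.84 and 0.63 with pseudocounts of 1 and 64) and Il1rl1 (0.67 ± 0.11), the receptor of interleukin-33, were the other shared genes of the list. Csf3 also moved with the sets, at 56.8 and 42.6 on the TRAP and TRAP after PTX arrays with high Saa3 and 18.6 and 14.9 on the others. Its limma adjusted p was 0.00289, or 0.000441 with the sets as the block, and 0.0696 in the TRAP experiments alone. Il1rl1 measured 0.78 with thrombin, 1.04 with TRAP and 0.20 with TRAP after PTX, the last not called (limma adjusted p = 0.375).

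Chemokines with large but uneven changes fell outside the shared response. Ccl2, which draws in monocytes, was at 564.1 and 727.7 on the basal arrays and 1896.3 and 2206.2 after thrombin, 607.6 and 598.4 against 6680.9 and 1590.9 after TRAP, and 4003.5 and 3396.6 against 1433.8 and 6720.7 after PTX and TRAP. After PTX and TRAP, replicate 1 was below both of its basal arrays and replicate 2 above, and the shared value of 1.27 ± 0.44 was not called (limma adjusted p = 0.0779). Ccl20 (1.46 ± 0.50) and Ccl7 (0.96 ± 0.50) were not called either. With the sets of arrays as the block the 3 chemokines were called, with adjusted p of 2.05e-06, 0.00546 and 8.34e-05. Ccl2 itself differs between the sets.

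NF-kB subunits and their feedback genes rose in 6 of 15 members and fell in none (median 0.35). Nfkbiz, a nuclear cofactor of NF-kB, rose by 2.01 ± 0.24 and Tnfaip3, the A20 inhibitor, by 1.52 ± 0.17. Nfkbiz had basal signals of 132.4 and 138.4 (thrombin experiment), 129.5 and 125.2 (TRAP) and 248.5 and 273.3 (TRAP after PTX), and stimulated signals of 391.2 and 587.6, 1379.6 and 594.3, and 537.1 and 1286.5 in the same order, and here again the 2 highest arrays were those of the set with high Saa3. Leaving out replicate 1 of both TRAP and TRAP after PTX gave 1.97, and 1.55 for Tnfaip3. The limma adjusted p was 7.77e-05 for Nfkbiz and 3.85e-05 for Tnfaip3, and 8.2e-09 and 1.99e-07 with the sets as the block. The inhibitor gene Nfkbia was called at 1.10 ± 0.23 but missed the rule on direction, since TRAP after PTX replicate 1 (298.1) lay between its basal arrays (311.5 and 277.2). Its limma adjusted p was 0.0059, and 5.1e-07 with the sets as the block.

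Of the genes for prostaglandin and sphingosine mediators 3 of 15 rose and none fell (median 0.07). Ptgs2, the inducible cyclooxygenase, rose by 2.01 ± 0.21 and Sphk1, a sphingosine kinase, by 1.51 ± 0.27. Ptgs2 was at 389.4 and 428 on the basal arrays and 3235.8 and 3696.2 after thrombin, 1050.4 and 945.9 against 3591.6 and 3510.0 after TRAP, and 994.6 and 1188.4 against 2743.5 and 2253.5 after PTX and TRAP, with no overlap in any experiment. Small GTPases and their exchange factors rose in 4 of 15 (median -0.005), led by the small GTPase gene Rnd1 (1.23 ± 0.15) and the exchange factor gene Arhgef3 (0.84 ± 0.13). Of 26 actin genes under SRF and MRTF 7 rose (median 0.17) by small amounts, such as Enah (0.51 ± 0.07), Ankrd1 (0.45 ± 0.08) and Vasp (0.33 ± 0.07). This count was 3 of 26 with quantile normalization. Srf itself, counted with the immediate-early genes, rose by 0.67 ± 0.13. It measured 1.28 with thrombin, 0.54 with TRAP and 0.19 with TRAP after PTX, the last not called (limma adjusted p = 0.387). Its responses differed among the stimuli (adjusted p = 0.0107, limma's F test).

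Heat shock and chaperone genes rose in 5 of 14 members, all in the same direction on every array, and none fell (median 0.15). Dnajb1, a partner of the Hsp70 chaperone, was at 1028.9 and 922 on the basal arrays and 1260.5 and 1264.6 after thrombin, 711.6 and 731.8 against 1154.3 and 1280.0 after TRAP, and 715.3 and 702 against 1231.2 and 1104 after PTX and TRAP. It rose by 0.61 ± 0.07, with no overlap within an experiment. Hspa1a, an inducible Hsp70 gene, rose by 0.59 ± 0.09, Dnajb4 by 0.49 ± 0.07, Bag3 by 0.41 ± 0.06 and Dnaja1 by 0.24 ± 0.05. The largest of these changes, of Dnajb1, was 1.52-fold, and with quantile normalization 5 members rose and 1 fell.

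**Figure D4:**
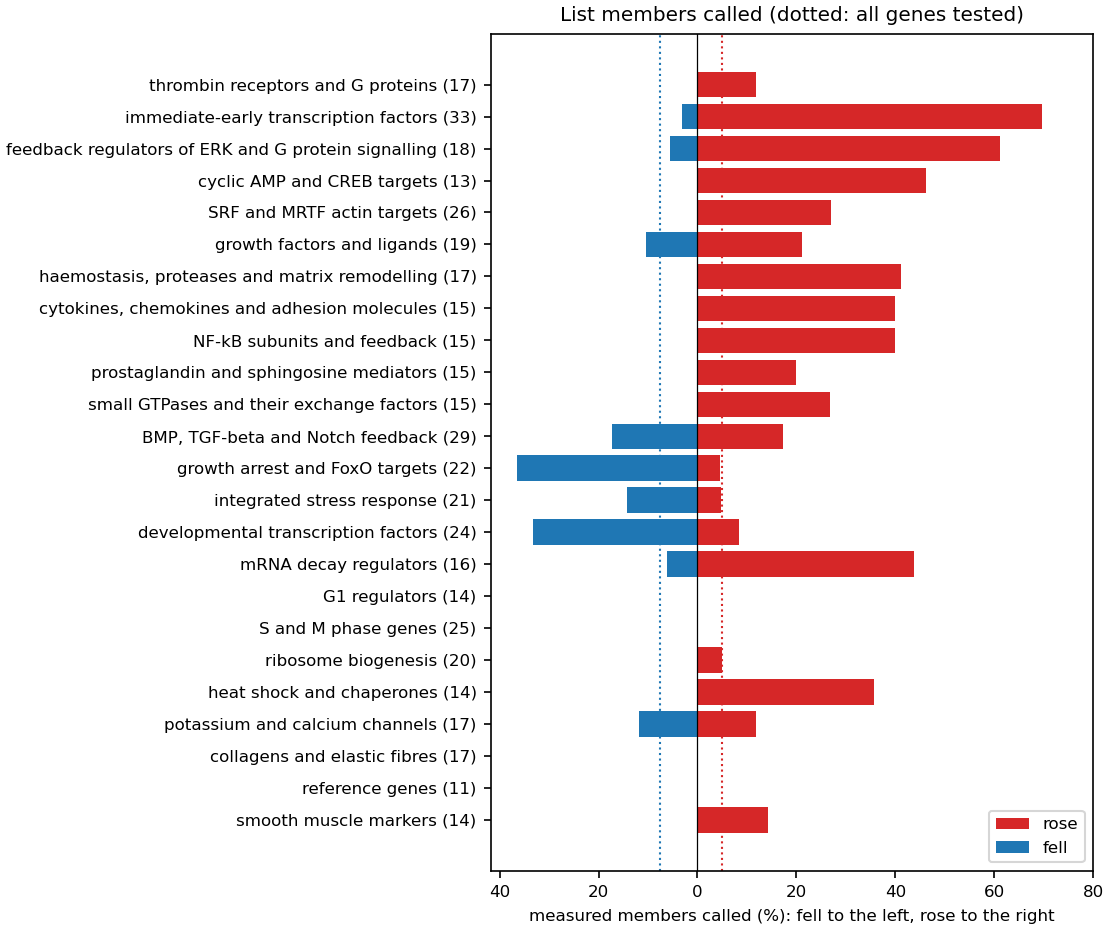
Percent of the measured members of each gene list (number in brackets, lists of 10 or more) that rose (right) or fell (left) in the shared response, with dotted lines at 5.03% and 7.61% for all genes tested. Immediate-early factors had 69.7% of members up, and growth arrest genes 36.4% down.

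The largest fall was in a gene of BMP and TGF-beta signalling. In the list of BMP, TGF-beta and Notch feedback genes 5 of 29 members rose and 5 fell, all of them on every array (median -0.05), or 6 and 4 with the arrays centred on their median. Bambi, a decoy receptor of this pathway, had the largest fall of all genes. Its signal went from 782.3 and 891.1 to 75.7 and 123.8 with thrombin, from 296.2 and 318.6 to 99.7 and 107.5 with TRAP and from 342 and 332.4 to 88.5 and 72.9 with TRAP after PTX. The highest stimulated signal, 123.8, was below the lowest basal one, 296.2, and the change was -2.07 ± 0.19 (limma adjusted p = 5.89e-06). The Id genes, which encode inhibitors of helix-loop-helix factors and are classic BMP targets, moved in opposite directions. Id3 rose by 1.42 ± 0.08, from basal signals of 709 to 1318.3 to stimulated ones of 2109.2 to 3097. Id2 fell by 1.20 and Id1 by 0.54. Id2 was at 225.6 and 240.3 on the basal arrays and 97.6 and 84.1 after thrombin, 255.7 and 345.7 against 70.7 and 59.9 after TRAP, and 156.4 and 161.5 against 135.4 and 93.9 after PTX and TRAP, with the smallest gap after PTX and TRAP. Smad1, a mediator of BMP signals, rose by 0.43 ± 0.05 and the receptor gene Bmpr1a fell by 0.38. Hey2, a Notch target of arterial cells, fell by 0.75, and Skil and Tgif1, repressors of TGF-beta signals, rose by 0.56 and 0.71.

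Growth arrest genes and targets of FoxO fell in 8 of 22 members and rose in 1, with a median of -0.21. This count was 6 with the arrays centred on their median and 9 with quantile normalization. Klf15, a factor associated with quiescent smooth muscle and metabolism, fell by 1.38 ± 0.15 (limma adjusted p = 2.86e-05). It was at 123.1 and 154.5 on the basal arrays and 54.2 and 60.7 after thrombin, 218.9 and 167 against 78 and 66.4 after TRAP, and 248.8 and 353.3 against 56.3 and 90.3 after PTX and TRAP, and the stimulated arrays were lower without overlap in each experiment. Foxo3, a FoxO factor itself, had basal signals of 345.4 and 249.6 (thrombin experiment), 299.4 and 346.4 (TRAP) and 393 and 357.1 (TRAP after PTX), and stimulated signals of 138.9 and 136.9, 212 and 205, and 226.9 and 295.4 in the same order, with no overlap within an experiment, and fell by 0.70 ± 0.10. Sesn1, a stress-responsive inhibitor of growth signals, and Ccng2, an unusual cyclin of resting cells, each fell by 0.71. The exception was Gadd45g, which rose by 0.50, while Gadd45a fell by 0.43.

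Transcription factors of development fell in 8 of 24 members and rose in 2 (median -0.11), and 3 of the 8 fell on every array. With the arrays centred on their median 7 fell. Tbx5, known from heart and limb, fell by 0.96 ± 0.11. It had basal signals of 201 and 168.6 (thrombin experiment), 217.3 and 220.1 (TRAP) and 197.1 and 210.4 (TRAP after PTX), and stimulated signals of 77.7 and 55.6, 104.5 and 105.7, and 112.5 and 137.8 in the same order. The homeobox gene Meox2 fell by 0.66 ± 0.10. Its level differed between experiments, at 45.4 and 55.5 in the basal thrombin arrays and 637.7 and 655.1 in the basal TRAP arrays, and it was lower after stimulation in each. Tbx18, Nr2f2 and Osr2 were called lower by 0.65, 0.51 and 0.93 without keeping their direction on every array.

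Several of the largest falls were in genes of no list. Tent5c, a poly(A) polymerase gene, was at 99.9 and 77.5 on the basal arrays and 35.5 and 38.8 after thrombin, 53.9 and 65.1 against 15.4 and 16.8 after TRAP, and 35.8 and 54.7 against 8.4 and 15.3 after PTX and TRAP, a fall of 1.11 ± 0.12 with like responses of -0.97, -1.23 and -1.13. Skida1 fell by 1.09, Lurap1l, an adaptor gene, by 1.02, and Ppp1r3b, which targets a phosphatase to glycogen, by 1.00. The potassium channel subunit Kcne4, from the list of channels, in which 2 of 17 members rose and 2 fell, was lower by 1.00, with -0.34 after thrombin and -1.27 and -1.40 with TRAP and TRAP after PTX. Its basal signals in the thrombin experiment were 22.6 and 23.5, close to the pseudocount, against 151.2 to 209 elsewhere. L3mbtl3, Rcor2 and Ift70b fell by 0.92, 0.91 and 0.90. Several of these sizes depend on the pseudocount: with 64 the values were -0.58 for Tent5c, -0.68 for Skida1, -0.63 for Ppp1r3b, -0.56 for Rcor2 and -0.55 for Ift70b. Of the unlisted rises, C9h6orf141, an uncharacterised open reading frame, rose by 2.13 ± 0.17 and Tbkbp1, which binds the kinase TBK1, by 1.19 ± 0.13.

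Lists of cell division, matrix and housekeeping genes held no call. None of 25 S and M phase genes, 14 G1 regulators, 17 collagens and elastic fibre genes or 11 reference genes was called with limma, where 0, 3, 1 and 4 of them had an unadjusted p under 0.05, and with quantile normalization 2 of the G1 regulators fell. Over all genes 5.03% rose and 7.61% fell, a share at which lists this short hold few calls, so nothing is read from these counts. In ribosome biogenesis 1 of 20 members rose, Nop58 by 0.24 ± 0.06, a call lost in 6 of the 12 fits without 1 array. Smooth muscle markers rose in 2 of 14: Csrp1 by 0.24 ± 0.05 and Cnn1 by 0.30 ± 0.08, both uncalled with quantile normalization. Acta2, the smooth muscle actin, was at 4568.2 to 8499.7 on basal and 5603.2 to 9115.4 on stimulated arrays. Of the genes of thrombin receptors and their G proteins 2 of 17 rose. F2r, which encodes PAR1, was called at 0.26 ± 0.08 and F2rl1, which encodes PAR2, at 0.41 ± 0.12 (limma adjusted p = 0.0379 and 0.0465). F2r missed the rule on direction and is no shared gene. It measured 0.10 with thrombin, 0.12 with TRAP and 0.56 with TRAP after PTX, of which only the last was called (limma adjusted p = 0.00574). The calls of F2r and F2rl1 over the 12 arrays were lost in 8 and 10 of the fits without 1 array, with adjusted p up to 0.093 and 0.114.

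Markers of other cell types ranged from dim to bright. Flt1, a VEGF receptor that the list of endothelial markers holds, rose by 1.39 ± 0.12 (limma adjusted p = 4.44e-06), at 80.6 and 89.1 on the basal arrays and 247.6 and 266.1 after thrombin, 193.8 and 226.2 against 495.4 and 714.8 after TRAP, and 216.4 and 235.8 against 760.3 and 431.4 after PTX and TRAP. Further probe sets of Flt1 measured 0.96, which was called, and 0.11, which was not (limma adjusted p = 0.491). The defining endothelial genes Pecam1, Vwf and Kdr had mean signals of 4.24, 7.12 and 6.79 over the 12 arrays and were too dim to be tested, and Tek measured -0.23 ± 0.13 without being called. The summed signal of the endothelial list was 157.3 to 272.3 on basal and 316.3 to 780.4 on stimulated arrays, and only Flt1 and Tek were bright enough to enter it. Of the leukocyte markers Ptprc and Cd68 had mean signals of 4.28 and 15.6, and Cd14 408.5. The fibroblast markers Dcn and Mfap5 were bright, at 1720 and 5431, and the summed signal of their list was 6219 to 10563 on basal and 6376.7 to 10408 on stimulated arrays. The part of such cells in the shared response was not tested. None of the 2 leukocyte, 6 fibroblast, 3 Schwann cell and neural or 1 adipocyte markers tested was called with limma, where 0, 2, 1 and 0 had an unadjusted p under 0.05.

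The shared genes were next followed through the single stimuli. Of the probe sets 133 (0.714%) were called in all 3 single responses with the same sign, and in genes these were 95, all of them shared genes. Among the 58 shared genes with at least 2-fold changes 41 were called in all 3. These responses come from the arrays that chose the shared genes, so their common sign follows from the rule and their sizes are a description. The median response of the shared genes that rose was 0.48 with thrombin, 0.45 with TRAP and 0.43 with TRAP after PTX, and of those that fell -0.39, -0.35 and -0.38. Of the 50 that rose at least 2-fold, 31 were highest with thrombin, 15 with TRAP and 4 with TRAP after PTX. The count of 133 was 68 to 114 in fits without 1 array, the lowest without TRAP after PTX replicate 1.

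Unequal responses were tested with an F test of the difference among the 3 stimuli, which called 152 probe sets (0.816%). The test had no term for the sets of arrays, and the basal arrays of the TRAP and TRAP after PTX experiments lie in different sets. A difference between these responses and a difference between the sets therefore cannot be told apart. Of the 917 shared genes 18 were called, 14 that rose and 4 that fell, and 137 had an unadjusted p under 0.05. The response was largest with thrombin in 11 of the 18, with TRAP in 5 and with TRAP after PTX in 2. Ptgs2 differed most clearly, at 3.03, 1.82 and 1.18 (limma adjusted p = 0.000779). Sphk1, Arc and Csrnp1 were likewise largest with thrombin, at 2.74, 0.95 and 0.86, at 2.75, 0.97 and 0.72, and at 1.93, 0.71 and 0.55. So was the fall of Bambi, at -2.91, -1.44 and -1.87. Id2 had another order, with a response of -1.95 to TRAP, -1.22 to thrombin and -0.44 to TRAP after PTX, of which the last was not called (adjusted p = 0.219; difference among stimuli, limma adjusted p = 0.0285). Sesn2, a target of the integrated stress response, fell by 1.24 with TRAP and 1.00 with TRAP after PTX and measured -0.155 with thrombin, which was not called. The count of 152 was 38 without thrombin replicate 1, 42 without thrombin replicate 2, 72 and 71 without basal TRAP replicates 1 and 2, and 90 and 97 without basal thrombin replicate 1 and basal TRAP after PTX replicate 2.

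**Figure D5:**
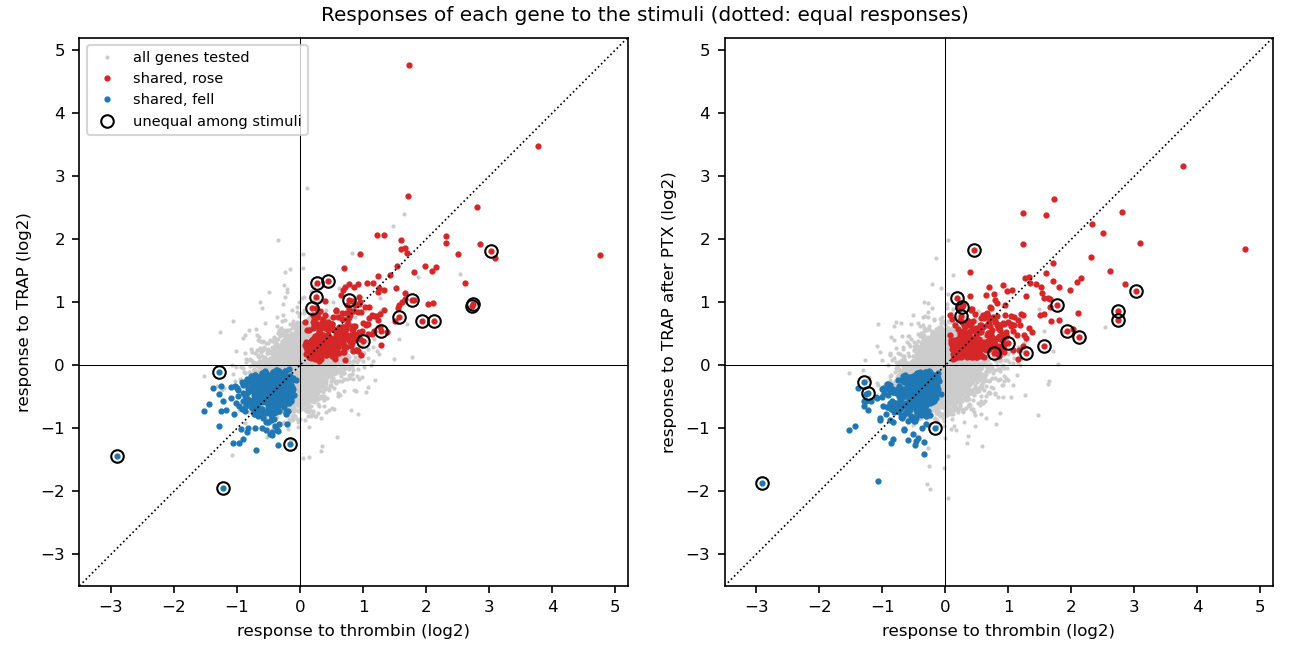
Response to thrombin (horizontal) against the response to TRAP (left) and to TRAP after PTX (right), in log2(signal + 16), for each tested gene (grey), shared genes that rose (red) or fell (blue) and those called in the test of a difference among stimuli (circles). Serpinb2 lies farthest right (4.77 with thrombin, 1.75 and 1.84 in the other experiments), and Cxcl1 highest on the left (4.77 with TRAP).

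Even responses stood beside these. The 5 shared genes with the smallest range over the stimuli among those changed at least 2-fold were Tnfaip6, Flt1, Tbkbp1, Tent5c and Sgk1, with ranges of 0.14, 0.15, 0.24, 0.26 and 0.27. These are ranges of means of 2 arrays, and in the TRAP experiments each mean joins 1 array of either set. The arrays of Sgk1 were at 1.657 and 2.445 with TRAP and 2.71 and 1.786 with TRAP after PTX. Those of Flt1 were at 1.182 and 1.697, and 1.682 and 0.887. Those of Tnfaip6 were closer, at 1.155 and 1.242, and 1.352 and 1.258. An adjusted p above the threshold in the test of a difference, as in Fosl1 (0.715) and Noct (0.783), does not show that responses were equal. The standard error of a single response was 0.25 for Fosl1 and 0.19 for Noct. Across all tested probe sets the 3 responses correlated with r of 0.40 (thrombin and TRAP), 0.37 (thrombin and TRAP after PTX) and 0.41 (TRAP and TRAP after PTX). These are descriptions across probe sets of the same arrays, which are not independent, although the experiments share no array.

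Some genes were called in the shared response without moving the same way on every array. Tslp, a cytokine gene, was at 195.8 and 173.5 on the basal arrays and 180.7 and 202.6 after thrombin, 152.4 and 154 against 505.3 and 614.9 after TRAP, and 104.4 and 124.4 against 609.8 and 408.5 after PTX and TRAP. Its arrays overlapped with thrombin and were far apart in both TRAP experiments, and the shared value was 1.27 ± 0.24, with a difference among stimuli (limma adjusted p = 0.00321). Fosb rose by 1.53 ± 0.28 but had 1 array after PTX and TRAP (26.7) between its basal arrays (19.3 and 27.7). Il6 was called at 1.27 ± 0.28 and had 1 array after PTX and TRAP (93.6) below both basal ones (110.2 and 111.1). It too moved with the sets, at 305.9 and 291.3 on the TRAP and TRAP after PTX arrays of the set with high Saa3 and 100.6 and 93.6 on the others, with a limma adjusted p of 0.00851, or 9.09e-05 with the sets as the block. In the TRAP experiments alone it was not called (limma adjusted p = 0.134). In the integrated stress response list 1 of 21 rose and 3 fell (median -0.04). Trib3 and Chac1 were called lower by 0.95 and 0.72 over the 12 arrays, yet measured 0.05 and 0.35 with thrombin, while Ppp1r15a, called higher, had 1.22 with thrombin and 0.22 and 0.11 otherwise. Cebpd, a factor of inflammation, measured -0.34, 1.99 and 1.01 and was not called (limma adjusted p = 0.0545).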

How the data were processed

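Biotin-labelled RNA of 12 samples was measured on Affymetrix 1-colour arrays, which hold 31099 probe sets. Per the submitters' processing notes the authors used GCOS 1.4, and the deposited values are linear intensity, scaled on each array to a common trimmed mean. Without the 57 controls, 18625 probe sets passed a filter at the 40th percentile of their mean log2 signal. A gene name was used where the array annotation gives exactly 1 symbol (20826 probe sets; 436 have several and 9780 none), with 20764 matched by Entrez number to the current rat annotation and 0 changed, and 9906 genes were tested.

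limma 3.58.1 in R 4.3.3 was used (lmFit and eBayes with an intensity trend; 8 residual and 6.81 prior degrees of freedom in the blocked fit, 6 residual in the model of group means), 2-sided. Precision is limited by the 2 arrays per group and, for a shared response, by differences among the stimuli. The median standard error of a shared response was 0.10 (log2). The scripts were tested on simulated data with known changes. Named genes are the 16 largest shared rises and 12 largest falls, in each list the 4 or fewer members of smallest p, the thrombin receptors, the 5 most even and 6 most uneven shared genes of at least 2-fold, and the 4 largest called and 4 largest uncalled genes without the same direction on every array. Other list members, genes of the test among stimuli and those of the sets of arrays were named after their values were seen. The members, gene lists and tests were chosen with earlier results of these data known. Alternatives were other pseudocounts, filters, scalings and variance settings, blocks by replicate number or array set, a further 2-fold threshold, the TRAP experiments alone, other rules of direction, and fits without 1 array.

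For promoters with several starts (3251 genes) the first listed start was used. Folds are not given as bounds, as no detection calls were used here.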

Additional observations from a re-analysis of the deposited data

Results flagged for a closer look

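The test of a difference among thrombin, TRAP and TRAP after PTX called 15 of the genes chosen for naming, each with its adjusted p from limma's F test. Largest with thrombin were Ptgs2 (0.000779), Arc (0.012), Csrnp1 (0.012), Zfp36 (0.0167), Sphk1 (0.0317) and Ppp1r15a (0.0167), which rose, and Bambi (0.0231), which fell. Larger with TRAP were the fall of Id2 (0.0285) and the rises of Il1rl1 (0.0387) and Arhgef3 (0.0401). Il1rl1 was at 1052.6 and 1138.2 on the basal arrays of TRAP and 2116.4 and 2111.3 on those of TRAP after PTX. These basal arrays lie in different sets, for which the test had no term. Cebpd (0.0107), which was not called in the shared response, measured 1.99 with TRAP and -0.34 with thrombin. Chac1 (0.00241), Trib3 (0.025) and Sesn2 (0.0376), genes of the integrated stress response, were lower in both TRAP experiments than with thrombin, with responses of Chac1 of 0.35, -1.27 and -1.24 in the order thrombin, TRAP and TRAP after PTX. Tslp (0.00321) was higher in both, at 0.05, 1.76 and 1.99. Groups of 2 arrays are too small for a test of single outlying arrays.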

How the results depend on the processing

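The 2040 called probe sets became 1358 without replicate 1 of both TRAP and TRAP after PTX, 1154 in the TRAP experiments alone and 15 against a 2-fold threshold, which also left 15 shared probe sets in place of 1432. The other alternatives gave 1580 to 2453, and those without 1 array 1527 to 1899. In the same direction on every array were 1867, and 3934 when each array was set against the mean of its basal arrays. Called in all 3 single responses were 133, or 85 without an intensity trend and 68 to 114 without 1 array. The difference among stimuli was called in 152, in 93 without a filter, in 27 without a trend and in 38 to 198 without 1 array. The count of list members called, 134, was 124 to 143. The cause of these shifts was not tested, beyond fewer arrays or a stricter threshold.

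Deviations of same-numbered stimulated and basal arrays correlated with 0.134 (thrombin), 0.104 (TRAP) and 0.022 (TRAP after PTX). In both TRAP experiments the stimulated replicates lie in different sets and the basal ones in the same set. The values of these experiments therefore cannot show whether replicate numbers pair the arrays. With a replicate block 1671 probe sets were called, 1234 of them in the same direction on every array, with 140 in all 3 single responses and 119 in the difference among stimuli.

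Of the 88 named genes that were called, 79 kept the call in each fit without 1 array. Leaving aside the 2-fold threshold and the TRAP experiments alone, 77 were tested in 24 alternatives and 66 of them kept the call in all, while 11 dim genes passed the filter in 22 or 23 and kept it there. Another pseudocount moved 9 by over 1.5 times, among them Arc (0.98 with 64) and Sesn1 (-0.42). Chac1, Cnn1, Csrp1, F2r, F2rl1, Nop58, Orai1, Ppp1r15a, Rhou, S1pr2 and Zyx lost it somewhere. Signs turned in uncalled genes near 0: Mfap5 to -0.005 with quantile normalization, Pi16 to 0.056 without both arrays named above, Csf1r to 0.011 and Tubb3 to -0.036 in the TRAP experiments alone, and, without 1 array, Csf1r ranged from -0.204 to 0.076 (0.038 and 0.006 also above 0), Tubb3 from -0.001 to 0.126 (also 0) and Lipe from -0.004 to 0.214.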

Other observations

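Genes with symbols of the Zfp family, most of which encode zinc finger proteins, are described here as a group chosen after its values were seen. Of 190 tested, 30 fell and 9 rose (15.8% and 4.74%), beside 7.45% and 5.03% of the 9716 genes with other symbols, with medians of -0.15 and -0.05. The difference between the shares was not tested. The median signal of the group was 110.9 against 253.8 for the other genes, and with each array centred on its median 13 fell (6.84%, beside 3.24% of the other genes), or 17 with quantile normalization (8.95% beside 5.66%). The part of signal level and scaling in this count was not tested further.

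Clock genes, another group chosen after values were seen, rose in 5 of 15 measured members and fell in 2, all on every array. These shares are 33.3% and 13.3%, beside 5.03% and 7.61% of all 9906 genes, and the difference was not tested. Noct, Nfil3 and Per2 are also members of lists described above. Noct, Nfil3, Bhlhe40 (0.72), Per2 (0.69) and Bmal1 (0.48) rose, and Per3 (-0.63) and Dbp (-0.57) fell. The antisense transcripts Ptgs2os (0.51) and Map2k3os (0.66) were also shared rises. The strand that their probe sets read was not checked, so signal of the sense gene and of the antisense transcript cannot be told apart.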
